A study of Homo sapiens with 18 samples.

Results

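The FLAG footprints of stem-cell-derived beta-like cells were compared with those of pluripotent stem cells in 4 of the 18 libraries of the series, 2 from each kind of cell, and every gene with enough counts was tested, 16018 of 57808. The libraries were chosen by their labels alone. All cells were of the MEL1 line, an established human embryonic stem cell line with the INSGFP/W reporter, in which GFP sits in 1 insulin allele, so that cells which transcribe that allele turn green. The pluripotent cells (hPSC) were undifferentiated and have RPL22-FLAG as their labelled genotype. The beta-like cells (sBC) were differentiated in stirred suspension, received RPL22-FLAG from a lentivirus and were sorted for GFP. The labels name no sort and no lentivirus for hPSC, so effects of the delivery and of the sort cannot be told apart from those of the stage. Every group therefore carries the reporter, and the labels give no cell makeup of the GFP+ gate. Whether the 2 libraries per group were grown as separate cultures is not given, so p-values measure only the spread between these libraries, which may be technical.

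A ribosome that is translating shields a short stretch of mRNA from nuclease, and sequencing these stretches (footprints) shows which mRNAs are being read by ribosomes. RPL22 is a protein of the large cytosolic ribosomal subunit, and a FLAG tag on it lets an antibody pull down the ribosomes of tagged cells. Cells were lysed without cycloheximide, RNA was digested with RNase I and tagged ribosomes were captured on anti-FLAG beads. Mitochondrial ribosomes do not contain RPL22. Levels are given as CPM, that is estimated counts per M counts (M is 1e6) after normalization between libraries (TMM), and were not divided by gene length, so levels of different genes are not compared. Changes are log2 fold changes of GFP+ sBC over hPSC ± standard error (SE), with 2 libraries per group and adjusted p from edgeR's quasi-likelihood test over all genes. A change passed at an adjusted p under 0.05.

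The hPSC libraries held 20.57 and 23.11 M counts and the GFP+ sBC libraries 8.73 and 7.59 M. Nuclear protein-coding genes held 90.3% and 90.4% of the counts in hPSC, but 54.6% and 62.8% in GFP+ sBC. Much of the rest of the GFP+ sBC counts lay in a few features: ENSG00000270103, which has no symbol, took 19.8% and 17.2%, the spliceosomal RNA RNU11 took 8.83% and 7.46% (1.31% and 0.544% in hPSC) and small nucleolar RNAs 6.26% and 3.79% (0.574% and 0.938%). Mitochondrially encoded genes took 4.08% and 3.99% in GFP+ sBC against 0.321% and 0.196% in hPSC. Of this the ribosomal RNA MT-RNR2, which is not translated, alone took 2.48% and 2.03% in GFP+ sBC and 0.183% and 0.0911% in hPSC. Fragments of such RNAs in a footprint library need not be ribosome footprints, and their part in the results was not tested. The median log2 fold change of all genes tested was -0.01. It was 0.12 in a fit without mitochondrial genes and the most abundant features, and 0.15 in a fit of 13638 protein-coding genes alone, where the nuclear protein-coding genes had 0.03 in the fit of all genes. The rank correlation (Spearman) of the 2 libraries was 0.975 in hPSC and 0.946 in GFP+ sBC.

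**Figure D1:**
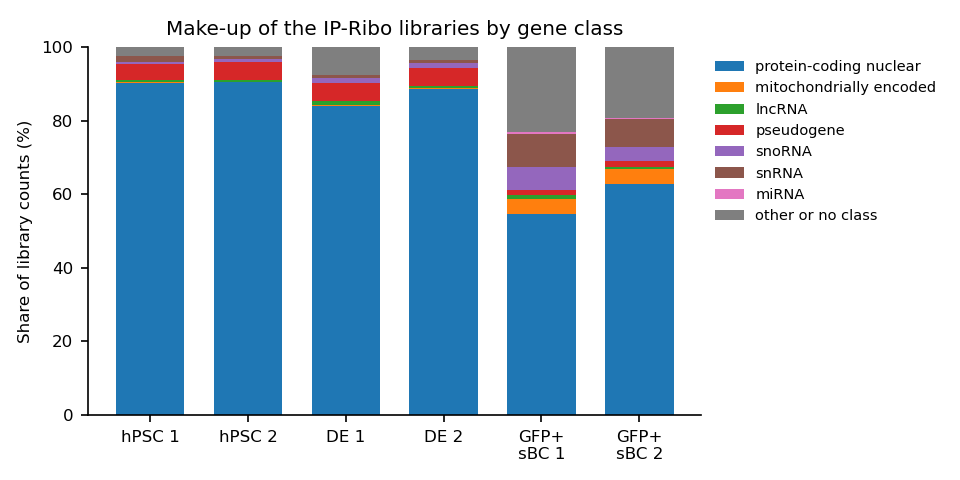
Share of the counts of each FLAG footprint library (vertical axis, percent) by class of gene, as stacked bars, for the 2 libraries each of hPSC, definitive endoderm (DE) and GFP+ sBC. Nuclear protein-coding genes held over 90% of both hPSC libraries and 54.6% and 62.8% of the GFP+ sBC libraries.

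Most measured genes differed between these cells. Of 16018 genes 9437 passed (58.9%), with 4865 higher in GFP+ sBC (30.4%) and 4572 lower (28.5%), and 10190 had an unadjusted p under 0.05. A gene list with about 30% of its members on each side is therefore like genes at large. When the change had to exceed a log2 value of 1 (glmTreat) 6517 genes passed, 3750 higher and 2767 lower. With 2 against 2 libraries no exact permutation test can reach 0.05, so the p-values rest on the spread that edgeR shares among genes and across the 6 FLAG footprint libraries, DE included.

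RPL22, the gene of the tag construct, had 1800 and 1660 CPM in hPSC and 3730 and 1960 in GFP+ sBC. The change of 0.72 ± 0.34 did not pass (adjusted p = 0.105), and gene counts cannot tell tagged from endogenous transcripts. Without GFP+ sBC library 2 it was 1.09 and passed (adjusted p = 0.0361). Marker genes of the labelled cells were where the labels put them. The summed level of 8 markers of pluripotent cells was 4620 and 4450 CPM in hPSC and 27.1 and 15.1 in GFP+ sBC, with all 8 lower. That of 11 markers of beta cells was 2.03 and 1.69 CPM in hPSC and 4430 and 3660 in GFP+ sBC, and all 10 that could be tested rose. MAFA, a factor of mature beta cells, was too low to test, at 0.565 and 0.337 CPM in hPSC and 0.288 and 0 in GFP+ sBC. Markers of other islet and gut endocrine cells were in the gate too: 7 alpha cell markers summed to 5.03 and 5.35 CPM in hPSC and 64600 and 38200 in GFP+ sBC, 4 delta cell markers to 3.67 and 1.69 against 1870 and 1530, and 5 markers of serotonin-making (enterochromaffin-like) cells to 0.452 and 0.337 against 1070 and 1350. Acinar markers (4, with CTRB1 at 0) summed to 0 in hPSC and to 30.4 and 39.1 CPM in GFP+ sBC, progenitor and duct markers (7, with PTF1A at 0) to 114 and 147 against 981 and 1120. Mesenchyme markers (7) summed to 14.6 and 16.3 against 45.6 and 22.0 CPM, neural markers (4) to 7.8 and 7.86 against 19.3 and 19.7, and endothelial and immune markers (4, with TYROBP at 0) to 5.71 and 4.87 against 8.22 and 125. What these cells add to each result below was not tested, and more cells of a type cannot be told apart here from more RNA per cell.

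Most islet hormone genes had few or no footprint counts in hPSC and more in GFP+ sBC. Of 12 hormone genes tested 10 rose and 1 fell, against 30.4% and 28.5% of all genes. INS (ENSG00000254647.6), which encodes insulin, had 0 and 0 CPM in hPSC and 3740 and 2890 in GFP+ sBC. It was at least 42300-fold higher, taking 3 counts over both hPSC libraries as the floor (adjusted p = 2.08e-05). GCG (ENSG00000115263.14), which encodes glucagon, the hormone of alpha cells that raises blood glucose, had 0 and 0 CPM in hPSC and 53100 and 28700 in GFP+ sBC. It was at least 520000-fold higher (adjusted p = 3.98e-05). Both hormones were at 0 in both hPSC libraries and high in both GFP+ sBC libraries, with GCG more variable between these than INS. SST, somatostatin, the hormone of delta cells, had 0 and 0.0482 CPM in hPSC and 1630 and 1320 in GFP+ sBC. With 1 hPSC count in all, the ratio was 56600 (exact 95% counting interval 10200 to 2240000). Such intervals and floors cover counting error only.

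Other hormone genes reached a few CPM in GFP+ sBC. Ghrelin (GHRL) had 0 and 0 CPM in hPSC and 6.92 and 3.67 in GFP+ sBC and was at least 67.2-fold higher (adjusted p = 0.00165), although by DESeq2 it did not pass (adjusted p = 0.0864). TRH, thyrotropin-releasing hormone, which fetal islets also make, was at least 65.4-fold higher, with 0 and 0 CPM in hPSC and 4.33 and 5.84 in GFP+ sBC. IAPP, the amyloid peptide released with insulin, had 0.0565 and 0 CPM in hPSC and 4.04 and 2.04 in GFP+ sBC, a ratio of 116 (19.7 to 4670, adjusted p = 0.00498). Without hPSC library 2 IAPP missed the threshold (adjusted p = 0.0507). The 1 hormone gene that fell was NMU, neuromedin U (-4.22 ± 0.74, adjusted p = 0.00216), at -5.56 without GFP+ sBC library 1 and -3.54 without library 2.

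**Figure D2:**
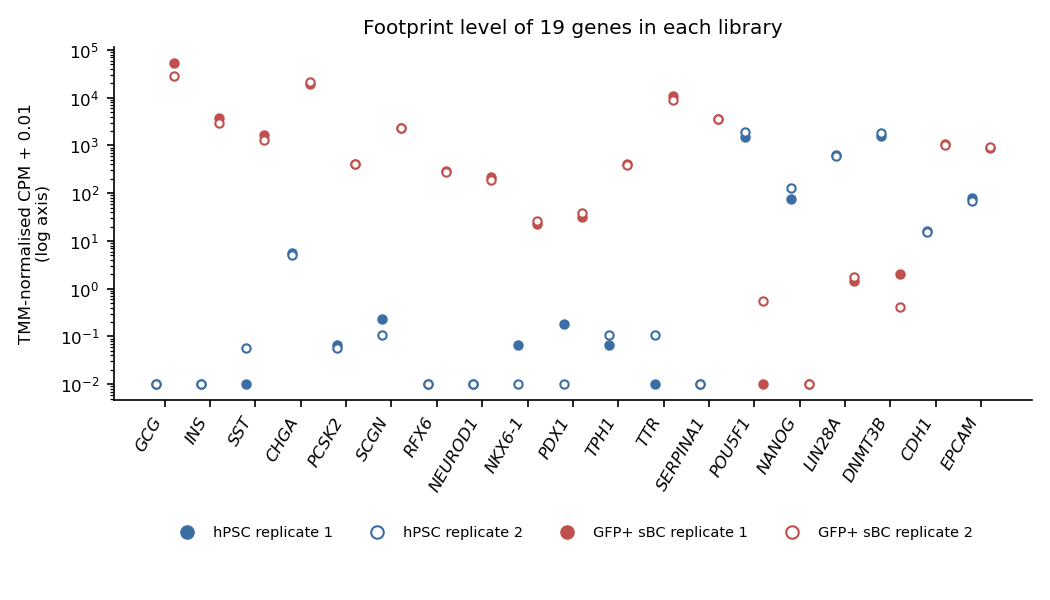
Level in FLAG footprints (vertical axis, TMM-normalised CPM plus 0.01, log axis) of 19 genes, with 1 point for each library of hPSC and of GFP+ sBC. INS and GCG lie at 0 CPM in both hPSC libraries and between 2890 and 53100 CPM in GFP+ sBC, and POU5F1 and NANOG lie at 0.543 CPM or less in GFP+ sBC.

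Transcription factors that specify islet cells rose as a block, 24 of 26 with a median of 6.35 (6.19 with genes at 0 put at their bound), while 1 fell. PDX1, which is needed for the pancreas to form and for insulin transcription, had 0.17 and 0 CPM in hPSC and 31 and 39.1 in GFP+ sBC. Its ratio was 451 (153 to 2190, adjusted p = 0.000209). NKX6-1, a factor that separates beta from alpha fate, had 0.0565 and 0 CPM in hPSC and 23.1 and 26.5 in GFP+ sBC, a ratio of 955 (170 to 37800). NEUROD1, which activates insulin transcription, had 0 and 0 CPM in hPSC and 216 and 191 in GFP+ sBC and was at least 2600-fold higher. RFX6, which directs endocrine differentiation and incretin responses, had 0 and 0 CPM in hPSC and 286 and 277 in GFP+ sBC and was at least 3600-fold higher. NKX2-2, which maintains beta cell identity, had 0 and 0 CPM in hPSC and 10.5 and 10.3 in GFP+ sBC and was at least 134-fold higher. FOXA2, a factor of endoderm that opens chromatin, was already at 1.47 and 1.3 CPM in hPSC and rose to 37.6 and 45.4 (4.90 ± 0.36). The zinc finger gene BNC2 was the factor of the list that fell, from 15 and 16.1 to 0.433 and 0.543 CPM (-4.97 ± 0.49, adjusted p = 0.000143).

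Secretory granule genes rose in 22 of 23 cases, with a median of 7.92, and IDE, which degrades insulin, fell (-0.86 ± 0.21), a call lost without GFP+ sBC library 1 (adjusted p = 0.0558) or hPSC library 1 (0.0633). CHGA, the main structural protein of hormone granules, had 5.59 and 5.11 CPM in hPSC and 18900 and 21500 in GFP+ sBC (11.88 ± 0.38, adjusted p = 1.56e-05). CHGB, its relative, went from 1.36 and 0.675 to 789 and 1010 CPM (9.79 ± 0.47). The groups were far apart for both, with the hPSC libraries at a few CPM or less. SCG2, another granin, was at 0 in hPSC and at 336 and 524 CPM in GFP+ sBC, at least 5550-fold higher, and SCG5, the chaperone of the convertase PCSK2, rose by 8.82 ± 0.35. PCSK1, which cuts proinsulin, had 0.622 and 0.386 CPM in hPSC and 110 and 135 in GFP+ sBC (7.92 ± 0.38). PCSK2, which cuts proinsulin and proglucagon, had 0.0565 and 0.0482 CPM in hPSC and 410 and 408 in GFP+ sBC, a ratio of 7860 (2170 to 64900). SLC30A8 loads zinc into insulin granules and had 0.226 and 0.386 CPM in hPSC and 109 and 95.9 in GFP+ sBC (8.33 ± 0.60). PTPRN, a membrane protein of dense-core granules and an autoantigen of type 1 diabetes, had 0.283 and 0.289 CPM in hPSC and 95.5 and 152 in GFP+ sBC (8.71 ± 0.53).

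The machinery that releases granules and couples release to glucose followed. Of 34 exocytosis genes 26 rose and 1 fell (median 2.62). SNAP25, a membrane-fusion protein, rose from 0.113 and 0.193 to 57.2 and 55.4 CPM (8.42 ± 0.39), SYT4, a calcium sensor family member, by 7.42 ± 0.38 and the syntaxin STX1A by 6.19 ± 0.33. Of 37 listed genes of channels, transporters and receptors that excite beta cells, all 33 tested rose (median 5.40). KCNQ1, KCNK3, TRPM5 and GCGR were too low to test in both groups. In this and other lists, genes near 0 in hPSC could be tested only through their counts in GFP+ sBC or DE. Such members could hardly fall, so the filter favours a rise. ABCC8 and KCNJ11 form the ATP-sensitive potassium channel that closes when glucose is metabolized. ABCC8 had 0.17 and 0 CPM in hPSC and 279 and 378 in GFP+ sBC, a ratio of 4230 (1450 to 20500), and KCNJ11 had 0.113 and 0.145 CPM in hPSC and 16.4 and 22.7 in GFP+ sBC (7.14 ± 0.50). The potassium channel KCNK16, at 81.5 and 98.4 CPM in GFP+ sBC, was at least 1160-fold higher, and GPR119, a lipid receptor that raises insulin release, at least 1030-fold. G6PC2, which opposes glucokinase in beta cells, had 0 and 0 CPM in hPSC and 62.7 and 29.1 in GFP+ sBC and was at least 582-fold higher. FFAR1, a receptor for fatty acids, was at least 88.7-fold higher, at 6.92 and 6.93 CPM in GFP+ sBC. Of 14 autoantigens of type 1 diabetes, several of them in the lists above, 12 rose and 1 fell (median 7.33). SOX13, which fell, went from 20.3 and 21.4 to 3.46 and 4.75 CPM (-2.34 ± 0.29). GAD1, which makes the transmitter GABA, had 0.509 and 1.11 CPM in hPSC and 1.15 and 2.85 in GFP+ sBC and did not pass (1.29 ± 0.66, adjusted p = 0.127).

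Genes of other endocrine, pancreatic and liver cells were also higher in the GFP+ footprints. All 12 tested genes of enterochromaffin cells rose (median 7.98), and TPH2 was too low to test. TPH1, the rate-limiting enzyme of serotonin synthesis outside the brain, had 0.0565 and 0.0964 CPM in hPSC and 407 and 398 in GFP+ sBC, a ratio of 5160 (1760 to 25000). Its regulators LMX1A and FEV, at 51 and 62.6 and 16.1 and 20.4 CPM in GFP+ sBC, had ratios of 2190 (392 to 86700) and 705 (125 to 27900). SLC18A1, which packs serotonin into granules, had a ratio of 1080 (298 to 8930). Of 17 genes of liver and gut cells 16 rose and none fell (median 9.93, or 8.45 with genes at 0 put at their bound). TTR, a thyroid hormone carrier of liver and alpha cells, had 0 and 0.0964 CPM in hPSC and 10900 and 8830 in GFP+ sBC, a ratio of 189000 (52400 to 1560000). SERPINA1, a protease inhibitor made by liver, had 0 and 0 CPM in hPSC and 3650 and 3530 in GFP+ sBC and was at least 46000-fold higher. FGB, a chain of fibrinogen, had 0 and 0 CPM in hPSC and 62.1 and 57.1 in GFP+ sBC and was at least 763-fold higher. Beside GCG, INS, TTR, SERPINA1, SCG2, SST and RFX6, the 12 largest rises held AGT (angiotensinogen, 998 and 1060 CPM in GFP+ sBC), HEPACAM2 (354 and 341), the lens and islet protein CRYBA2 (287 and 264), the stomach hormone GAST (233 and 184) and ENSG00000270103. Of these, AGT, HEPACAM2, CRYBA2 and GAST were at 0 in both hPSC libraries, and were at least 13200-, 4450-, 3530- and 2670-fold higher. ENSG00000270103, at 10.2 and 0 CPM in hPSC, lost its call without either GFP+ sBC library (adjusted p = 0.133 and 0.137).

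Of 14 exocrine and duct genes 12 rose (median 5.10, or 4.19 at the bound) and none fell. CFTR, the chloride channel of duct cells, had 0.0565 and 0.0964 CPM in hPSC and 255 and 392 in GFP+ sBC, a ratio of 4170 (1430 to 20200). Of the digestive enzyme genes some were at 0 in hPSC and passed: the elastase CELA3A had 26.8 and 33.8 CPM in GFP+ sBC, the carboxypeptidase CPA1 2.16 and 3.26 and the trypsinogen PRSS1 1.44 and 2.04. All 3 were at 0 in hPSC and at least 390-, 35.0- and 22.4-fold higher. CTRB1 and AMY2A were at 0 in all 4 libraries, and PNLIP, CTRC and CLPS were too low to test, each under 1 CPM. Of 13 progenitor genes 10 rose and 1 fell, the Wnt effector TCF7L2 (-1.42 ± 0.26), with a median of 4.30. The granule membrane gene GP2 had a ratio of 570 (101 to 22600), GATA4 rose by 4.29 ± 0.42 and GATA6 by 3.55 ± 0.34. Definitive endoderm genes went both ways, with 6 of 14 higher and 5 lower, and 3 lower without hPSC library 1. The chemokine receptor CXCR4 rose from 0.226 and 0.241 to 28.5 and 26.2 CPM (6.82 ± 0.35), while the secreted antagonist CER1 (-1.62 ± 0.35) and the anterior factor OTX2 (-2.86 ± 0.34) fell.

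Of 16 mesenchyme and matrix genes tested 9 rose and 2 fell (median 2.53), and the members that rose most encode basement membrane and plasma matrix proteins that epithelia also make. FN1, fibronectin, had 10.4 and 7.09 CPM in hPSC and 1200 and 1500 in GFP+ sBC (7.27 ± 0.34, adjusted p = 1.63e-05). The laminin chains LAMB1 (9.38 and 5.93 to 490 and 557 CPM, 6.10 ± 0.32) and LAMC1 (11.4 and 7.66 to 361 and 525 CPM, 5.54 ± 0.34) rose together, and LAMA1 rose by 6.70 ± 0.49, or 7.29 without hPSC library 1. The fibroblast collagen COL1A1 had 6.89 and 9.01 CPM in hPSC and 3.75 and 5.98 in GFP+ sBC and did not pass (-0.71 ± 0.46, adjusted p = 0.226), and COL3A1, LUM, DCN and PDGFRB were too low to test. ACTA2, smooth muscle actin, rose (3.85 ± 0.41), while TAGLN, a partner of actin in smooth muscle (-2.95 ± 0.34), and the surface protein THY1 (-4.51 ± 0.54) fell. Of 10 endothelial, immune and neural genes 4 rose and 1 fell. The microtubule regulators STMN2 (0.509 and 0.386 to 107 and 138 CPM, 8.08 ± 0.45) and DCX (1.70 ± 0.29) rose, and the tubulin TUBB3 fell (-2.01 ± 0.25). PECAM1, of endothelium and platelets, had 5.54 and 4.77 CPM in hPSC and 7.93 and 124 in GFP+ sBC and did not pass (adjusted p = 0.0873). Its GFP+ sBC level came almost wholly from library 2, and without library 1 it passed (4.57, adjusted p = 0.00103).

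Most pluripotency genes were lower in the footprints, and some of them were nearly gone. Of 35 tested 29 fell and 3 rose, with a median of -6.11 (-4.84 with genes at 0 put at their bound). TERF1 fell from 593 and 564 CPM in hPSC but kept 72.8 and 52.2 in GFP+ sBC. PODXL and CD9 did not pass (adjusted p = 0.12 and 0.294). POU5F1 (ENSG00000204531.17), the factor at the centre of the pluripotency network, had 1520 and 1930 CPM in hPSC and 0 and 0.543 in GFP+ sBC. It fell by 12.55 on the log2 scale (SE 0.75, adjusted p = 2.95e-05), with -11.63 without GFP+ sBC library 1 and -17.68 without library 2, which held its 4 counts. NANOG, its partner, had 76.8 and 126 CPM in hPSC and 0 and 0 in GFP+ sBC and was at least 493-fold lower. PRDM14, a factor that keeps DNA methylation low, and UTF1, a chromatin factor, were at 0 in both GFP+ sBC libraries and at least 328- and 86.9-fold lower. ZIC2, of early neural and pluripotent cells, and ZSCAN10 were also at 0 and at least 125- and 237-fold lower. LIN28A, the RNA-binding protein that blocks let-7 maturation, had 619 and 610 CPM in hPSC and 1.44 and 1.77 in GFP+ sBC (-8.57 ± 0.30, adjusted p = 1.56e-05). DNMT3B, a DNA methyltransferase of early embryos, went from 1550 and 1790 to 2.02 and 0.408 CPM (-10.43 ± 0.63), and was at -11.99 without GFP+ sBC library 1 and -9.71 without library 2. The members that rose are surface proteins that epithelia also carry: the cadherin CDH1 had 16.4 and 15.2 CPM in hPSC and 1080 and 1030 in GFP+ sBC (6.06 ± 0.25), and EPCAM had 77.4 and 69.6 CPM in hPSC and 901 and 933 in GFP+ sBC (3.64 ± 0.23). The growth factor receptor FGFR1 (1.32 ± 0.35) lost its call without GFP+ sBC library 2 (0.72, adjusted p = 0.108) and without either hPSC library. Among the 12 largest falls were also pseudogenes of NANOG and other genes, whose reads cannot be told from those of near-identical copies.

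MicroRNA genes are not translated, and counts at them in these libraries are fragments of their transcripts that a gene-level table cannot assign to an arm or a precursor. They are shown because LIN28A and let-7 form a known switch and because the miR-302 family marks pluripotent cells. Of 30 miRNA features tested 7 rose and 4 fell, and 28 of the 30 matched a RefSeq entry. Mature sequences are given from RefSeq (GRCh38.p14), 5′ to 3′, with the seed (bases 2 to 8, which pair with targets) in capitals. The first 5 share a seed, and so do the last 3.
hsa-miR-302a-3p (chr4:112648186-112648208, minus strand): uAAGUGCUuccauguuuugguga
hsa-miR-302b-3p (chr4:112648489-112648511, minus strand): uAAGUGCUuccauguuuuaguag
hsa-miR-302d-3p (chr4:112648006-112648028, minus strand): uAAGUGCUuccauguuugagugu
hsa-miR-372-3p (chr19:53787931-53787953, plus strand): aAAGUGCUgcgacauuugagcgu
hsa-miR-373-3p (chr19:53788748-53788770, plus strand): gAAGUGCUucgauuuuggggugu
hsa-let-7a-5p (let-7a-3 gene, chr22:46112752-46112773, plus strand): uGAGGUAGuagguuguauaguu
hsa-let-7b-5p (chr22:46113691-46113712, plus strand): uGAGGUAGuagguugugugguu
hsa-let-7i-5p (chr12:62603691-62603712, plus strand): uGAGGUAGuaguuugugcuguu

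The miR-302 genes of chromosome 4 went to 0. MIR302A had 19.3 and 5.98 CPM in hPSC and 0 and 0 in GFP+ sBC and was at least 57.8-fold lower (adjusted p = 0.00219), and MIR302B had 12.5 and 4.48 CPM in hPSC and 0 and 0 in GFP+ sBC and was at least 38.9-fold lower (adjusted p = 0.000885). MIR302D was at least 4.46-fold lower (adjusted p = 0.0277), a call lost without any of the 4 libraries in turn. Their host transcript MIR302CHG had 108 and 114 CPM in hPSC and 0 and 0 in GFP+ sBC and was at least 531-fold lower. MIR372 and MIR373, with the same seed on chromosome 19, were at 0 in GFP+ sBC and at 0.283 and 0.145 and 1.64 and 0.434 CPM in hPSC, and did not pass (adjusted p = 0.11 and 0.0606). MIR373 passed under 6 other settings, DESeq2 and the replicate block among them. The let-7 genes were higher in GFP+ sBC, each by a call that rests on few libraries. MIRLET7B had 0 and 0.193 CPM in hPSC and 24.2 and 3.53 in GFP+ sBC (adjusted p = 0.00891, and 0.0555 without hPSC library 1). MIRLET7A3 had 1.07 and 0.771 CPM in hPSC and 68.8 and 6.66 in GFP+ sBC (adjusted p = 0.0225, and 0.144 without hPSC library 1 and 0.158 without library 2). MIRLET7I had 0.0565 and 0.0482 CPM in hPSC and 2.16 and 0.543 in GFP+ sBC, a ratio of 25.5 (6.16 to 226), and lost its call without GFP+ sBC library 1 (adjusted p = 0.21), hPSC library 1 (0.177) or hPSC library 2 (0.191). In all 3 the GFP+ sBC library 1 was the higher, by several fold. MIR375, an islet miRNA, had 0.113 and 0 CPM in hPSC and 0.144 and 1.49 in GFP+ sBC and did not pass (adjusted p = 0.124).

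Cell cycle and replication genes fell in 29 of 37 cases and rose in 3 (median -4.78). CCNE1, the cyclin that starts DNA replication, had 38.1 and 33.6 CPM in hPSC and 0.144 and 0.408 in GFP+ sBC (-6.96 ± 0.41, and -7.90 without GFP+ sBC library 2). GINS2, a part of the replicative helicase, had 274 and 179 CPM in hPSC and 2.6 and 0.951 in GFP+ sBC (-7.00 ± 0.50, and -7.90 without GFP+ sBC library 1). The 3 members that rose are inhibitors of the cycle, CDKN1A, CDKN1B and CDKN1C, while the inhibitor CDKN2A did not pass. CDKN1B (0.82 ± 0.28) lost its call without GFP+ sBC library 1 or either hPSC library. CDKN1A, a target of p53, went from 0.735 and 1.64 to 107 and 89.4 CPM (6.34 ± 0.44, and 7.01 without hPSC library 2) and CDKN1C from 3.05 and 5.83 to 28.4 and 48 (3.10 ± 0.61). CCND1, the cyclin that links growth signals to the cycle, had 36.1 and 32.6 CPM in hPSC and 35.3 and 48.5 in GFP+ sBC, and the libraries of the groups overlapped (0.29 ± 0.25, adjusted p = 0.349). CCND2 had 80.4 and 59.4 CPM in hPSC and 93.9 and 98.5 in GFP+ sBC (0.46 ± 0.23, adjusted p = 0.119). CCND1 passed with hPSC total footprints as the baseline (0.85), and CCND2 did so there (0.96) and by DESeq2 (0.56). All 17 replication-dependent histone genes, which are made in step with DNA synthesis, fell (median -4.63). H2AC11 had 308 and 529 CPM in hPSC and 10.8 and 7.2 in GFP+ sBC (-5.54 ± 0.41), and the linker histone H1-1, from 4.69 and 4.39 to 0 and 0.136 CPM, was lower by a ratio of 64.7 (11.5 to 2570). Histone genes are near copies of each other, so their single values are uncertain.

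Footprints on the mRNAs of the translation machinery itself were lower in GFP+ sBC. Of 80 cytosolic ribosomal protein genes 78 fell and 2 rose (median -2.68), with 1 higher without GFP+ sBC library 1, either hPSC library or either DE library, and of 45 translation factors 38 fell and 1 rose (median -1.64). EEF1A1 (ENSG00000156508.17), which brings tRNAs to the ribosome, had 41400 and 34200 CPM in hPSC and 7480 and 7640 in GFP+ sBC (-2.32 ± 0.26, adjusted p = 0.000239). EEF1B2, which recharges it, fell by 2.63 on the log2 scale, and EIF1AX, which helps the ribosome scan for a start codon, by 3.25. EIF4EBP1, the repressor of cap binding controlled by mTOR, had 32 and 40 CPM in hPSC and 1.87 and 1.49 in GFP+ sBC (-4.41 ± 0.30). EIF2S3, a subunit of the factor that brings the initiator tRNA, fell from 327 and 339 to 33.5 and 26.2 CPM (-3.48 ± 0.23). TPT1, a growth-related protein whose mRNA is regulated like those of ribosomal proteins, had 1390 and 1210 CPM in hPSC and 219 and 166 in GFP+ sBC (-2.75 ± 0.26). EIF5B, which joins the subunits, had 439 and 337 CPM in hPSC and 305 and 305 in GFP+ sBC and did not pass (-0.35 ± 0.28, adjusted p = 0.317). The 1 factor that rose, the helicase EIF4A2 (1.03 ± 0.27), lost its call without GFP+ sBC library 1 (adjusted p = 0.0993) and without hPSC library 1 (0.0513) or 2 (0.111), and was at -0.23 with total footprints of hPSC as the baseline.

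Ribosomal proteins are encoded by mRNAs that start with a tract of pyrimidines, through which mTOR signalling controls their translation. Start windows of a few such genes are printed because 78 of the 80 genes fell, with INS as a gene that rose. Each holds 10 bases before and 15 bases from the RefSeq start (GRCh38.p14), so it ends in the first exon, and is read 5′ to 3′ on the strand of the transcript. Capitals mark a C at the start base that is followed by at least 4 bases that are each C or T. RPS6 and RPL31 were chosen after their values were seen.
EEF1A1 (chr6:73521018-73521042, minus strand): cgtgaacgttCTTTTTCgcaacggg
TPT1 (chr13:45341169-45341193, minus strand): ctgagtcggcCTTTTCCgcccgctc
RPS6 (chr9:19380222-19380246, minus strand): gaagttggccCTCTTTTCCgtggcg
RPL31 (chr2:101002279-101002303, plus strand): ccttcgcgctCTTCCTTTCCaactt
RPL32 (chr3:12841551-12841575, minus strand): acgacccatcagcccttgcgcgcca
INS (chr11:2161195-2161219, minus strand): agcagccctcagccctccaggacag

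The run stood at the annotated start of 40 of 64 ribosomal protein genes found in the promoter table (62.5%), of 10 of 35 translation factors (28.6%) and of 612 of 11440 tested genes (5.35%), and at none of 24 genes of ER folding. RPL32 and INS lack it at the annotated start, which need not be the start used in these cells. All 40 ribosomal protein genes with the run fell (median -2.55), and so did 22 of the 23 tested without it (median -2.79). Outside these 2 lists, 38.1% of 562 genes with the run fell and 28.3% rose (median -0.28), against 29.4% and 31.8% of 10780 genes without it (median 0.01). A match is a description of letters only. RPS6, a substrate of the mTOR pathway, had 4170 and 3400 CPM in hPSC and 402 and 381 in GFP+ sBC (-3.27 ± 0.24), RPL31 had 2880 and 2560 CPM in hPSC and 387 and 307 in GFP+ sBC (-2.97 ± 0.30) and RPL32 had 2530 and 2370 CPM in hPSC and 96.5 and 92.1 in GFP+ sBC (-4.70 ± 0.26). In all 3 the libraries of each group were within a narrow range and far from the other group. RPS6 and RPL31 were chosen with these values known, so this only describes them.

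Some members of the list are paralogs of others. RPL39L, a copy of RPL39 known from testis and stem cells, had 95 and 152 CPM in hPSC and 0.288 and 0 in GFP+ sBC and was lower by a ratio of 898 (249 to 7420). RPL36A fell from 17.6 and 24.8 to 0.288 and 0.272 CPM (-6.20 ± 0.89). RPL22L1, the paralog of the tagged protein, had 69.7 and 69.1 CPM in hPSC and 15.9 and 7.06 in GFP+ sBC (-2.60 ± 0.39, and -3.31 without GFP+ sBC library 1). RPS27L, a paralog of RPS27 induced by p53, rose, from 57.1 and 55.7 to 190 and 254 CPM (1.98 ± 0.24, adjusted p = 0.000332). Reads of ribosomal protein genes can be split with their many pseudogenes.

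Genes that build ribosomes and charge tRNAs fell too. Of 24 genes of MYC and ribosome biogenesis 19 fell and none rose (median -1.84). NPM1, a nucleolar chaperone, had 22200 and 17500 CPM in hPSC and 3060 and 1670 in GFP+ sBC (-3.07 ± 0.39), GNL3 fell by 3.14 and WDR12 by 2.58 on the log2 scale. FBL, which methylates ribosomal RNA, had 341 and 494 CPM in hPSC and 71.8 and 43.2 in GFP+ sBC (-2.86 ± 0.46). NOP56, its partner, had 242 and 243 CPM in hPSC and 441 and 269 in GFP+ sBC and did not pass (0.55 ± 0.28, adjusted p = 0.124). It was at -0.05 with total footprints of hPSC as the baseline, and it hosts small nucleolar RNAs in its introns. Of 20 aminoacyl-tRNA synthetases 13 fell and 1 rose (median -0.88), with 8 lower without GFP+ sBC library 1 or hPSC library 2, and none higher without any of the 4 libraries in turn. FARSB had 181 and 152 CPM in hPSC and 42.4 and 35.3 in GFP+ sBC (-2.10 ± 0.29) and LARS1 596 and 527 CPM in hPSC and 148 and 150 in GFP+ sBC (-1.91 ± 0.25). AARS1, at 398 and 363 CPM in hPSC and 333 and 350 in GFP+ sBC, did not pass (-0.16 ± 0.20, adjusted p = 0.521).

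Genes that fold and modify secreted proteins in the endoplasmic reticulum (ER) rose, 24 of 25 with a median of 3.15 and none lower. In the 16 other settings the count was 24 in each, with medians from 2.87 to 3.56. DNAJB9, a chaperone partner that restrains the stress sensor IRE1, had 1.07 and 0.868 CPM in hPSC and 42.7 and 32.1 in GFP+ sBC (5.26 ± 0.33, adjusted p = 2.63e-05). WFS1, an ER membrane protein whose loss causes diabetes, had 1.86 and 2.31 CPM in hPSC and 118 and 131 in GFP+ sBC (5.89 ± 0.32). SEL1L and SYVN1 form the complex that removes misfolded proteins. SEL1L had 3.39 and 2.36 CPM in hPSC and 99.8 and 112 in GFP+ sBC (5.20 ± 0.29) and SYVN1 had 0.961 and 0.675 CPM in hPSC and 26.7 and 31.7 in GFP+ sBC (5.15 ± 0.37). ERO1B, the oxidase that forms disulfide bonds in proinsulin, had 0.283 and 0.337 CPM in hPSC and 112 and 96.2 in GFP+ sBC (8.34 ± 0.36). These genes were named for the size of their change, so the lack of overlap between their groups follows from the choice and is no further support.

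Of 28 genes of translocation into the ER 20 rose and 4 fell (median 2.32). SEC61A1, the pore, had 19.7 and 15.4 CPM in hPSC and 224 and 248 in GFP+ sBC (3.75 ± 0.25, adjusted p = 3.02e-05). SSR4 and TRAM1 sit beside the pore. SSR4 had 8.59 and 11.2 CPM in hPSC and 224 and 212 in GFP+ sBC (4.46 ± 0.26), and TRAM1 had 5.99 and 5.25 CPM in hPSC and 66.9 and 78.4 in GFP+ sBC (3.69 ± 0.33). SEC11C, a signal peptidase subunit, rose from 12.5 and 12.4 to 182 and 182 CPM (3.87 ± 0.23). The 4 that fell all belong to the signal recognition particle, which finds nascent secreted chains: SRP9 (1.20 lower on the log2 scale), SRP68 (0.91), SRP72 (0.84) and SRP14 (0.83). Each of these 4 calls was lost without GFP+ sBC library 2 (adjusted p = 0.129, 0.0523, 0.0599 and 0.0987) and without hPSC library 1 (0.0931, 0.0624, 0.101 and 0.0923). SRP9 (0.0514) and SRP72 (0.0695) also lost theirs without GFP+ sBC library 1.

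The integrated stress response, in which ATF4 is translated when general initiation drops, went both ways, with 9 of 24 genes higher and 9 lower (median -0.34). ATF4 itself had 103 and 97.7 CPM in hPSC and 30 and 29.3 in GFP+ sBC (-1.76 ± 0.20, adjusted p = 0.000265). Its serine and folate targets PSAT1 (739 and 722 to 32.7 and 27.2 CPM, -4.61 ± 0.30) and MTHFD2 (-3.82 ± 0.24) and the glutathione-degrading CHAC1 (-2.35 ± 0.46) fell. VLDLR, a lipoprotein receptor, had 2.88 and 2.7 CPM in hPSC and 260 and 347 in GFP+ sBC (6.76 ± 0.32), the amino acid transporter subunit SLC3A2 had 20.1 and 18.7 CPM in hPSC and 257 and 262 in GFP+ sBC (3.74 ± 0.27) and PPP1R15A, which ends the response, rose by 2.32 ± 0.39. The cystine transporter SLC7A11 had 4.58 and 3.66 CPM in hPSC and 5.33 and 5.03 in GFP+ sBC and did not pass (0.33 ± 0.36, adjusted p = 0.451).

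Immediate early genes, which respond within minutes to handling of cells, were listed because the labels name a sort for GFP+ sBC only. In footprints 7 of 20 rose and 4 fell (median 0.44), with 4 higher without GFP+ sBC library 1 and 2 without hPSC library 1, and in RNA 11 rose and 3 fell (median 1.56), against 30.4% and 30.9% of all genes. BTG2, an antiproliferative gene of this kind, rose from 1.75 and 0.964 to 11.2 and 16 CPM (3.33 ± 0.42), and IER2 fell from 36.1 and 29.9 to 3.32 and 4.08 (-3.15 ± 0.36). The chaperone HSP90AA1 had 8680 and 6820 CPM in hPSC and 2200 and 1820 in GFP+ sBC (-1.95 ± 0.28). Their part in the other results was not tested.

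Genes of glycolysis were mostly lower. Of 25 genes of glycolysis or kept silent in mature beta cells 17 fell and 2 rose (median -1.06), with 11 lower by glmTreat, and 1 rose without any of the 4 libraries in turn. LDHB, a lactate dehydrogenase, had 3330 and 2730 CPM in hPSC and 289 and 195 in GFP+ sBC (-3.65 ± 0.34), PGAM1 had 1850 and 1940 CPM in hPSC and 311 and 322 in GFP+ sBC (-2.58 ± 0.26), and PDK1, which keeps pyruvate out of mitochondria, fell by 2.47 on the log2 scale. REST, a repressor of neuronal and endocrine genes and of the silent kind, had 107 and 87.1 CPM in hPSC and 6.78 and 9.1 in GFP+ sBC (-3.61 ± 0.27). Of 39 nuclear genes of the respiratory chain 18 fell and 3 rose (median -0.54), with 11 lower without GFP+ sBC library 2 and 7 lower and none higher by glmTreat. COX7C (-2.11 ± 0.22), ATP5PO (-1.98 ± 0.27) and CYCS (-1.76 ± 0.31) fell. Those that rose, COX6C (0.98 ± 0.25), SDHA (0.76 ± 0.21) and NDUFA9 (0.71 ± 0.22), all lost their calls without GFP+ sBC library 1 (adjusted p = 0.0872, 0.0557 and 0.0844) and without either hPSC library.

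Cholesterol genes were divided: 11 of 20 rose and 5 fell (median 1.13). SREBF1, a regulator of lipid genes, had 6.22 and 6.56 CPM in hPSC and 46.9 and 52 in GFP+ sBC (2.95 ± 0.27). SC5D (2.89 ± 0.31) and CYP51A1 (2.17 ± 0.27) of the late pathway rose. Other enzymes of the pathway fell: HMGCS1 had 579 and 510 CPM in hPSC and 152 and 149 in GFP+ sBC (-1.86 ± 0.23), FDFT1 had 471 and 467 CPM in hPSC and 108 and 130 in GFP+ sBC (-1.98 ± 0.21) and MVD fell by 1.62. Of 11 polyamine genes 6 fell and 2 rose (median -1.36), with 1 higher without either GFP+ sBC library and none without either hPSC library. SRM, spermidine synthase, had 60.3 and 72.8 CPM in hPSC and 2.31 and 3.67 in GFP+ sBC (-4.47 ± 0.32), and AMD1, which makes the aminopropyl donor, had 94.9 and 78.3 CPM in hPSC and 3.6 and 1.36 in GFP+ sBC (-5.13 ± 0.47, and -6.00 without GFP+ sBC library 1). ODC1, the first enzyme of the pathway, fell by 1.75, SMS by 2.09 and AZIN1, which shields ODC1 from decay, by 2.15 on the log2 scale.

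Genes that present peptides on the cell surface rose, which bears on the study's subject of peptides shown by beta cells. Of 27 antigen presentation genes 18 rose and 3 fell (median 3.34). HLA-B (ENSG00000234745.10), a class I heavy chain, had 12.2 and 11.2 CPM in hPSC and 733 and 665 in GFP+ sBC (5.90 ± 0.26, adjusted p = 1.56e-05). HLA-C had 11.4 and 9.35 CPM in hPSC and 155 and 151 in GFP+ sBC (3.88 ± 0.42). The shared light chain B2M had 18.3 and 13 CPM in hPSC and 844 and 649 in GFP+ sBC (5.58 ± 0.48). In each of these the lowest GFP+ sBC library was several fold above the highest hPSC library. The nonclassical HLA-E (6.25 ± 0.36) and HLA-F (5.62 ± 0.43), the peptide-trimming enzyme ERAP1 (6.92 ± 0.44) and the class II chaperone CD74 (1.47 and 1.01 to 127 and 107 CPM, 6.56 ± 0.54) rose as well. HLA genes are near copies of each other and vary between people, so reads may be split among them. Those that fell were subunits of the standard proteasome, among them PSMB7 (-2.25 ± 0.22) and PSMB6 (-1.86 ± 0.28). Of 22 interferon-response genes 15 rose and 3 fell (median 2.41). The RNA sensor IFIH1, a risk gene of type 1 diabetes, had 2.03 and 1.49 CPM in hPSC and 249 and 223 in GFP+ sBC (7.06 ± 0.30), OAS1 had a ratio of 464 (127 to 3850) and IRF9, which carries interferon signals to the nucleus, rose by 4.92 ± 0.30. The antiviral membrane proteins IFITM1 and IFITM2, which stem cells keep high, fell with the factor IRF3 (-1.74 ± 0.40, adjusted p = 0.0538 without GFP+ sBC library 2): IFITM1 had 86.4 and 79 CPM in hPSC and 4.33 and 2.99 in GFP+ sBC (-4.50 ± 0.27) and IFITM2 had 256 and 307 CPM in hPSC and 37.3 and 55.3 in GFP+ sBC (-2.60 ± 0.31). The labels name a lentivirus for GFP+ sBC only, and its part in these genes was not tested.

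Of 14 imprinted genes, which are read from 1 parental copy, 9 rose and 2 fell (median 1.27), with 5 higher without hPSC library 1. DLK1, a secreted and membrane-bound regulator of growth, had 0.339 and 0.386 CPM in hPSC and 268 and 440 in GFP+ sBC (9.89 ± 0.42, adjusted p = 1.56e-05), and IGF2R, which clears IGF2, had 11.9 and 7.04 CPM in hPSC and 405 and 467 in GFP+ sBC (5.53 ± 0.34). GRB10 (-1.41 ± 0.32) and SNRPN (-1.83 ± 0.44, and -2.67 without GFP+ sBC library 1) fell. NDN had 26.2 and 23.4 CPM in hPSC and 25.2 and 33.6 in GFP+ sBC and did not pass (0.25 ± 0.28, adjusted p = 0.464). Of 10 DNA methylation genes 5 fell and 1 rose, the demethylating enzyme TET2 (4.07 ± 0.47, and 4.74 without hPSC library 1), with a median of -1.78 (-1.09 at the bound). DNMT1, which copies methylation at replication, fell by 1.83, and DNMT3A, which sets new marks, by 1.82.

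Footprint libraries also count RNAs that are not translated. Among 23 listed noncoding RNAs 8 rose and 9 fell (median -0.08), and 5 and 5 without hPSC library 2. LNCPRESS1, a stem cell transcript, was at least 104-fold lower, with 24.5 and 19.5 CPM in hPSC and 0 and 0 in GFP+ sBC, and LINC00678 was lower by a ratio of 311 (86 to 2570). The telomerase RNA TERC had 4.24 and 4.77 CPM in hPSC and 36.2 and 23.9 in GFP+ sBC (2.73 ± 0.34). SNHG12, a host of small nucleolar RNAs, had 57.8 and 26 CPM in hPSC and 900 and 258 in GFP+ sBC (3.79 ± 0.76), at 2.61 without GFP+ sBC library 1, 4.41 without library 2 and 4.43 without hPSC library 1. By class, 41 of 111 small nucleolar RNAs rose and 5 fell (median 2.42), and 2 of 24 small nuclear RNAs rose and 16 fell. SNORD62A had 372 and 242 CPM in hPSC and 34500 and 19600 in GFP+ sBC (6.46 ± 0.60), and RNU11 had 15300 and 6050 CPM in hPSC and 111000 and 76900 in GFP+ sBC (3.14 ± 0.48, and 3.92 without hPSC library 1). Mitochondrially encoded mRNAs, which mitochondrial ribosomes translate, were low, with MT-CO1 the highest at 25.4 and 15.2 CPM in GFP+ sBC. Of 11 tested 8 rose and none fell (median 2.16). That count was 5 without either GFP+ sBC library, 4 without hPSC library 1 and 2 without library 2. With total footprints of hPSC as the baseline none rose and 9 of 13 fell (median -1.40), so its direction depends on which hPSC libraries are used.

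**Figure D3:**
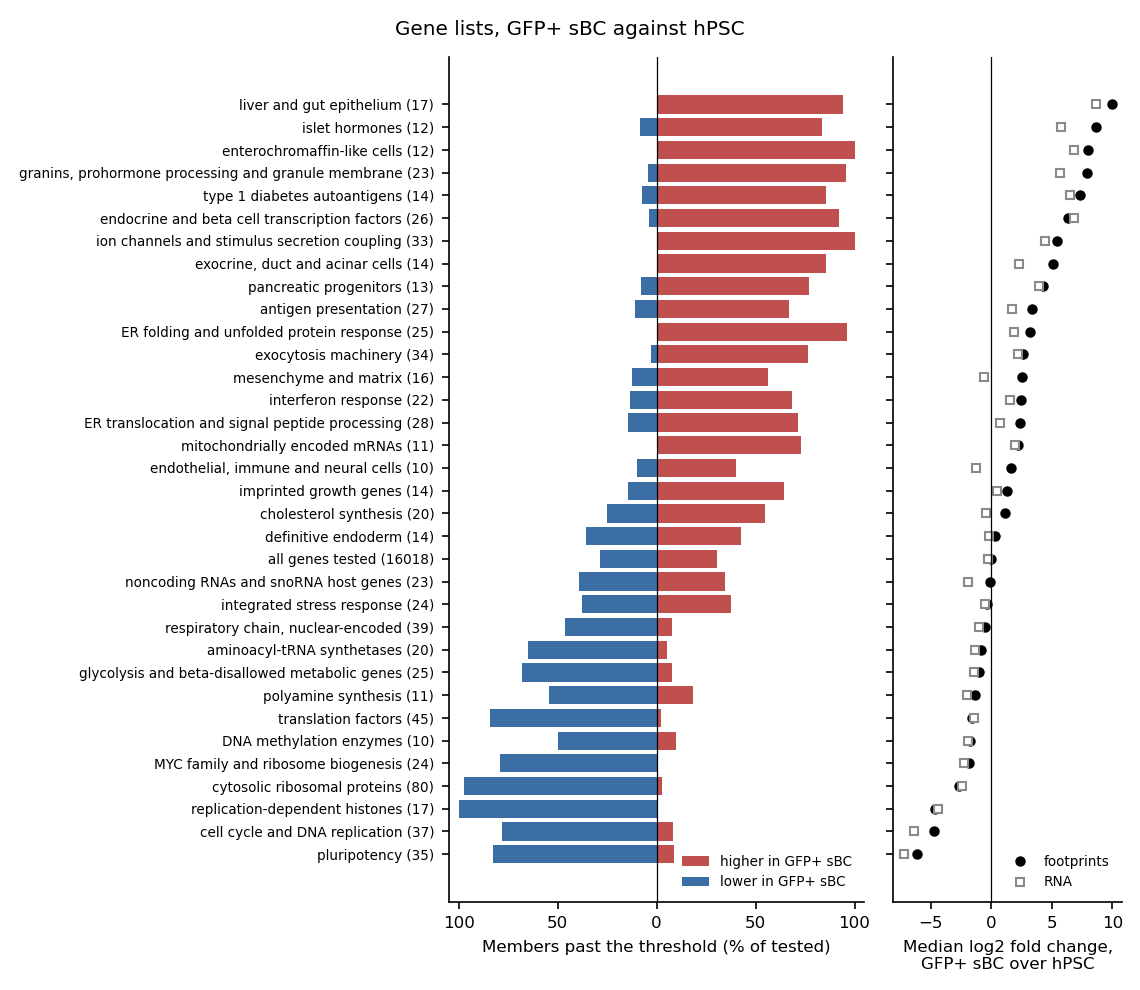
For 33 gene lists and for all genes tested, the share of members higher and lower in GFP+ sBC FLAG footprints (bars, percent of members tested) and the median log2 fold change of footprints and of RNA (points). Islet, granule and channel lists lie above 0, pluripotency, histone and ribosomal protein lists below, and all genes have 30.4% higher and 28.5% lower.

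RNA-seq of the same kinds of cells (29.79 and 30.86 M counts in GFP+ sBC, 79.77 and 85.59 M in hPSC) shows how far the footprints followed the RNA. Labels do not tie an RNA library to a footprint library. In RNA 14302 of 23321 genes passed (61.3%), 7088 higher (30.4%) and 7214 lower (30.9%). Over the 14798 genes tested in both assays, 3502 were higher in both and 3831 lower in both, which is 75.5% of the genes that were higher in footprints and 88.3% of those that were lower. The opposite call was rare, with 167 genes higher in footprints and lower in RNA, and 24 the other way. Over 8282 genes with a mean of at least 8 CPM the log2 fold changes of the assays correlated with a Pearson r of 0.895 and a Spearman rho of 0.892, across genes, which are not independent replicates.

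The difference between the footprint change and the RNA change (the interaction of assay and stage, on the log2 scale) passed for 3327 of 22210 genes (15.0%), with footprints above RNA for 2443 (11%) and below for 884 (3.98%). The count was 1748 or 1749 without hPSC RNA library 1 or 2, 2165 or 2174 without GFP+ sBC RNA library 1 or 2, and 2600 or 2316 without hPSC footprint library 1 or 2. Of the genes that passed 73.4% were above RNA, against 62.5% with RLE size factors, 61.7% without a filter on low counts and 48.8% in a fit of the 8 libraries alone. The genes named below with a difference passed in each of the 13 other settings, none of which used total footprints of hPSC as the baseline. RNA and footprint libraries also differ in kit and digestion, and in GFP+ sBC in the share of noncoding reads. The differences come from the fit of both assays (12 libraries), which was normalized on its own. They therefore need not equal the footprint change minus the RNA change, which are given from the separate fits of each assay.

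About as many members of the islet lists rose in RNA as in footprints. These were 10 of 12 hormones, 25 of 26 factors and 21 of 23 granule genes, against 30.4% of all genes in RNA. Their median RNA changes were 5.77, 6.85 and 5.70. In footprints the medians were 8.60 (6.13 with genes at 0 put at their bound), 6.35 and 7.92. The footprint change passed as different from RNA for 2 of the factors, both below RNA, and for none without hPSC footprint library 1, GFP+ sBC RNA library 1 or hPSC RNA library 2. It passed for 7 granule genes, all above (median difference 1.18), and for 4 without GFP+ sBC footprint library 2 or either hPSC RNA library. Of 33 channel genes 9 were above and 2 below (median difference 1.08). The ER lists were more often above: 12 of 25 folding genes and 15 of 28 translocation genes, with none and 1 below. Over the 16018 genes tested in footprints 2224 were above and 809 below. The median differences of the ER lists were 1.13 and 0.90, beside 1.18 for the granule genes. Their median RNA changes were 1.87 and 0.73, and their median footprint changes 3.15 and 2.32. The translocation count was 8 without either hPSC footprint library, and 9 without GFP+ sBC footprint library 2, GFP+ sBC RNA library 1 or hPSC RNA library 2. DNAJB9 changed by 1.97 in RNA, with a difference of 3.06 ± 0.29 in the fit of both assays (adjusted p = 0.000183). SYVN1 changed by 1.79 in RNA, with a difference of 3.13 ± 0.31, and SEL1L by 3.13, with a difference of 1.83 ± 0.25. The pore SEC61A1 changed by 1.70 in RNA (difference 1.80 ± 0.22), SSR4 by 2.32 (1.89 ± 0.22) and TRAM1, which did not pass in RNA (adjusted p = 0.16), by 0.86 (2.59 ± 0.32). For these genes of the ER the footprints went in the direction of the RNA and further.

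Matrix and antigen presentation genes showed the same kind of difference. So did some markers of other cells, many at low counts. Above RNA were 3 of 3 mesenchyme markers tested in footprints (median change 1.12, in RNA -3.07) and 3 of 5 progenitor and duct markers. Of 4 neural and 4 DE markers 2 each were above, and none of these were below. No beta (10), alpha (7), acinar (3) or pluripotent (8) marker was above RNA, and 1 beta and 1 pluripotent marker were below. The acinar markers had a median difference of 5.5 that did not pass for any of them. Of 4 delta markers 1 was above and 1 below, and of 5 enterochromaffin-like markers 1 was above. In the longer pluripotency list 9 of 35 genes were above RNA and 1 below, and in the cell cycle list 10 of 37 and 1. Whether RNA and footprint libraries differ in cell makeup was not tested. Of 18 matrix genes in the fit of both assays 12 were above RNA and none below. Of the 16 tested in footprints 5 rose and 5 fell in RNA. FN1 changed by 3.32 in RNA, with a difference of 3.71 ± 0.32 (adjusted p = 0.000107), LAMB1 by 3.81 (2.04 ± 0.28) and LAMC1 by 2.81 (2.49 ± 0.32). LAMA1 changed by 1.61 in RNA, with a difference of 4.87 ± 0.48 that was 4.12 without GFP+ sBC footprint library 2 and 4.18 without hPSC footprint library 2. Of 27 antigen presentation genes 12 were above RNA and none below. HLA-B changed by 3.38 in RNA (difference 2.27 ± 0.25, adjusted p = 0.000351), HLA-E by 3.93 (2.08 ± 0.31) and ERAP1 by 4.42 (2.27 ± 0.35). HLA-F had 0.809 and 0.928 CPM in hPSC and 1.69 and 1.07 in GFP+ sBC in RNA and did not pass there (0.66, adjusted p = 0.2), with a difference of 4.70 ± 0.48, or 3.93 without GFP+ sBC footprint library 1. IFITM1 had 121 and 128 CPM in hPSC and 0.516 and 0.346 in GFP+ sBC in RNA, so it fell by more in RNA (-8.17) than in footprints, a difference of 3.42 ± 0.30. IFITM2 changed by -6.18 in RNA, with a difference of 3.34 ± 0.38, or 2.75 without GFP+ sBC footprint library 2. DLK1 (difference 3.24 ± 0.46, and 2.56 without GFP+ sBC footprint library 2) and IGF2R (2.75 ± 0.32) were above RNA as well, as were the surface proteins CDH1 (1.94 ± 0.29) and EPCAM (1.18 ± 0.19).

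Some genes held their footprints while their RNA fell. CCND1 had 255 and 216 CPM in hPSC and 18.8 and 13.9 in GFP+ sBC in RNA (-3.85), with a footprint change of 0.29 ± 0.25 and a difference of 3.90 ± 0.31 (adjusted p = 8.41e-05). CCND2 had 334 and 284 CPM in hPSC and 137 and 110 in GFP+ sBC in RNA (-1.32), with a difference of 1.54 ± 0.25. The keratin KRT18 had 489 and 684 CPM in hPSC and 471 and 443 in GFP+ sBC in footprints (-0.36 ± 0.29, adjusted p = 0.32) and 367 and 363 CPM in hPSC and 54.8 and 71.2 in GFP+ sBC in RNA (-2.53), a difference of 1.92 ± 0.35. SLC7A11 changed by -1.85 in RNA (difference 1.93 ± 0.31), and its partner SLC3A2 by 1.27 (2.22 ± 0.27). Of 20 cholesterol genes 8 were above RNA and none below, or 5 and 4 without hPSC footprint library 1 and 2. CER1 had a difference of 2.84 ± 0.48. NOP56 (2.29 ± 0.29, and 1.67 without GFP+ sBC footprint library 1), SNHG12 (5.17 ± 0.77, and 3.80 without that library, or 4.48 without hPSC footprint library 2) and TERC (4.81 ± 0.56, and 5.72 without GFP+ sBC RNA library 2) were also above RNA. NOP56 and SNHG12 host small nucleolar RNAs in their introns, and the part of reads from these was not tested.

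Below RNA lay parts of the immediate early list and of the translation machinery. Of 20 immediate early genes tested in footprints 6 were below RNA and none above (median difference -1.0). This count depended on the setting. Over the 22 genes in the fit of both assays the median was -1.13, and from -2.07 to -0.91 in the 13 other settings. Over all 16018 genes tested in footprints 809 were below and 2224 above. Of 80 ribosomal protein genes 79 fell and 1 rose in RNA (median -2.45), and the footprint change was below the RNA change for 21 and above for 2 (median difference -0.52, against 0.09 over all genes tested in footprints). The count below ranged from 8 without hPSC RNA library 1, and 11 without GFP+ sBC RNA library 2 or hPSC RNA library 2, to 37 without GFP+ sBC footprint library 1, and the median from -1.07 to -0.38. RPL32 changed by -2.81 in RNA and -4.70 ± 0.26 in footprints, with a difference of -2.13 ± 0.25 in the fit of both assays (adjusted p = 0.000481). TPT1 changed by -1.47 in RNA, with a difference of -1.54 ± 0.25 (adjusted p = 0.00248). AMD1, whose mRNA has a short upstream reading frame that senses polyamines, had a difference of -2.38 ± 0.42, or -3.46 without GFP+ sBC footprint library 1. Ribosomal protein genes with the run of pyrimidines at their start had a median difference of -0.42 and those without it of -0.73. Of 45 translation factors 38 fell and 1 rose in RNA (median -1.47), and 4 were below RNA in footprints, a count between 1 (without hPSC RNA library 1) and 10 (without GFP+ sBC footprint library 1) with single libraries left out, and 20 in the fit of the 8 libraries alone. Most of the footprint change of EEF1A1 was in its RNA, which had 14600 and 15200 CPM in hPSC and 3150 and 4070 in GFP+ sBC (-2.04).

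**Figure D4:**
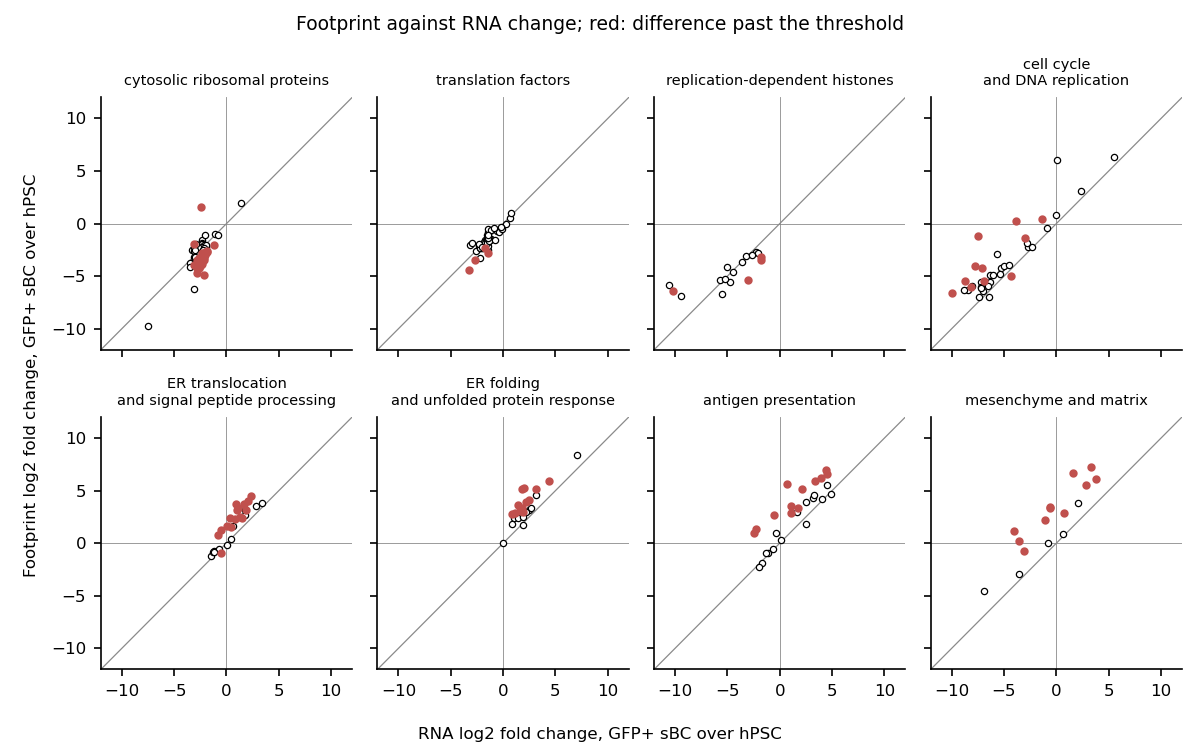
Log2 fold change of GFP+ sBC over hPSC in FLAG footprints (vertical axis) against RNA (horizontal axis) for the members of 8 gene lists, 1 panel each, with the line of equal change. The changes are those of the separate fits of each assay, and the test is that of the fit of both assays. Red points passed the test of the difference: those of ER folding, ER translocation, antigen presentation and matrix lie above the line with 1 exception, and most of those of ribosomal proteins lie below it.

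Definitive endoderm (DE, the germ layer that gives rise to the pancreas, also of RPL22-FLAG genotype) had 2 FLAG footprint libraries of 6.61 and 19.86 M counts. It shares the GFP+ sBC libraries with the comparison above, so the values are set side by side only. Against DE 8418 of 16018 genes passed (52.6%), 4451 higher (27.8%) and 3967 lower (24.8%). Of the lists, 11 of 12 hormones were higher and 1 lower, 22 of 23 granule genes and 32 of 33 channel genes higher, and 24 of 25 genes of ER folding higher. Of 35 pluripotency genes 24 were lower than in DE, of 37 cell cycle genes 29, of 17 histone genes 16 and of 80 ribosomal protein genes 67. Antigen presentation genes were higher in 20 of 27 cases and cholesterol genes in 14 of 20. The endoderm list, mixed against hPSC, was lower than in DE in 12 of 14 cases and higher in none. GATA6 was at 268 and 182 CPM in DE and at 9.08 and 10.7 in GFP+ sBC, GATA4 at 84.1 and 58.2 against 4.47 and 7.06 and FOXA2 at 83.5 and 48.7 against 37.6 and 45.4. EEF1A1 was at 10400 and 12400 CPM in DE, between hPSC and GFP+ sBC, and ATF4 at 208 and 220, above both.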

How the data were processed

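FLAG footprints were compared between 2 GFP+ sBC and 2 hPSC libraries, with 2 DE footprint libraries and 4 RNA libraries (GFP+ sBC, hPSC) beside them; groups come from the sample labels. The authors deposited 1 table of expected counts (estimated reads per gene) for 57808 genes in 18 libraries. Per the submitters' processing notes the build was GRCh38 and the tools included Salmon, DESeq2, UMI-tools, cutadapt and Bowtie; their roles, versions and the annotation release are not given in the sources used here. Of the values 16.8% to 31.3% per library were not whole, and all were rounded. Depth ran from 6.61 to 85.59 M (1e6) counts in the libraries used, and the shallower GFP+ sBC libraries limit precision at low counts.

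Counts were tested with edgeR 4.0.16 in R 4.3.3 (filterByExpr, TMM, robust quasi-likelihood test, Benjamini-Hochberg adjustment, threshold 0.05), in fits of 6 footprint libraries, 8 RNA libraries, or 12 libraries of both assays with an interaction term. Of the fits only the footprint comparison of GFP+ sBC with hPSC was tested on simulated data. These had far fewer changed genes than passed here, and the same spread for all genes. DESeq2 1.42.0 was an alternative, beside RLE size factors, other filters, a replicate block, left-out libraries, glmTreat and hPSC total footprints as the baseline. Folds against a group at 0 use a floor of 3 counts over its 2 libraries; with 1 to 3 counts the ratio has an exact 95% interval. The 34 gene lists, the members and the rule for named genes were chosen with earlier results of these data known. The rule took the 12 largest changes per direction whose mean log2 CPM was 3 or more, up to 5 members per direction and 3 not passed from each list, a fixed set (hormones, lineage factors, HLA genes and the like), and features that hold 2% or more of a library; the text names a part of these. Replicate numbers were not taken as pairs. Sequences are from RefSeq. A table of gene names held 98.7% of the identifiers. Python 3.11.15, pandas 2.3.3, numpy 2.4.6 and matplotlib 3.10.9 were used.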

Additional observations from a re-analysis of the deposited data

How the results depend on the processing

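The count of genes past the threshold between GFP+ sBC and hPSC footprints, 9437, was between 6517 (glmTreat) and 10536 (hPSC total footprints as the baseline) in the other settings, and from 6801 to 7949 with 1 library of these groups left out. Without DE library 1 or 2, a choice made after seeing the data, it was 9602 or 9488. The count against DE, 8418, ranged from 6757 to 7316 with 1 library left out, and that in RNA, 14302, from 10052 to 11391. The count of genes whose footprint change differed from their RNA change, 3327, ranged from 1748 to 3275 with 1 library left out, with 3484 by RLE size factors, 3106 without a filter and 3921 in the 8 libraries alone; without an RNA library it was 2165, 2174, 1748 or 1749, and without an hPSC footprint library 2600 or 2316. With the replicate number as a block, the counts were 8640, 7532, 13817 and 2832 in that order. The correlation of the replicate differences of hPSC and GFP+ sBC footprints was -0.0173 over 13100 genes, so the samples share only a number.

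For 198 named genes, 3039 of 3134 footprint values under other settings kept the direction and the side of the threshold, 75 lost and 18 gained a call, and 2 turned: EIF4A2 (-0.23) and NOP56 (-0.05) with hPSC total footprints as the baseline, where the cause was not tested. For the 32 genes with a named difference from RNA, all 416 values kept both, but none of these fits used hPSC total footprints as the baseline. GFP+ sBC libraries of 8.73 and 7.59 M counts limit what could be seen for genes at a few counts, such as the miRNA genes. Levels per coding length were not computed.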
